A study of Mus musculus with 3 samples.

Results

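MatFB-Im,Cuff and MatFB-Type 2 are names that the depositors gave to fibroblasts of the neonatal mouse lung. Cells of both names in the library sorted as GFP-low and tdTomato-negative were compared here, 205 cells named MatFB-Im,Cuff with 651 cells named MatFB-Type 2. These 856 cells were chosen by their deposited name and library, from 1284 cells in that library and 6142 in the series. No source used here expands the abbreviation Im,Cuff, and the names were given to these very cells, so every difference below describes how 2 annotated types differ and none was tested. The question behind the comparison is which genes mark alveolar fibroblasts before they take the Type 2 profile. All cells were taken at 1 age, so the order of the types in time was not measured.

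The pups carried Fgf18CreERT2, ROSATDTomato and PdgfrαEGFP, each over a wild-type allele, received tamoxifen from P2 to P5 and gave lung cells at P7. This genotype and treatment are shared by all 3 libraries, with 1 library for each gate: GFP-low tdTomato-negative, GFP-high tdTomato-negative and GFP-high tdTomato-high. GFP reports the Pdgfra locus, and tdTomato marks cells, and their descendants, in which Fgf18 drove the tamoxifen-dependent Cre during the injections. Lungs were digested with enzymes while warm before sorting. The sources do not say if the cells of a gate came from 1 pup or from many.

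Alveolar fibroblasts sit in the walls of the air sacs beside the epithelium, depend on the transcription factor Tcf21, and in the neonate make matrix, store lipid and send growth factors to epithelial and endothelial neighbours. Adventitial fibroblasts lie in the connective tissue cuffs around bronchi and large vessels and are rich in collagens and small proteoglycans such as decorin. Immediate early genes are a further set, switched on within minutes by growth factors, stretch or stress, and cell dissociation is known to induce them too.

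The MatFB-Im,Cuff cells held 4218501 UMIs in sum and a median of 19715 per cell. MatFB-Type 2 cells held 13108570 UMIs and a median of 19471. Mitochondrial UMIs made up a median of 3.03% and 3.90% of a cell. Levels are UMIs per 1e6 UMIs of the type (CPM), and a count of 0 allows a level of up to 0.711 CPM in MatFB-Im,Cuff and 0.229 CPM in MatFB-Type 2. Ratios carry exact 95% intervals that cover counting error only, and no spread between animals can be had from 1 library. Of these cells, 3 have a barcode that also occurs in the GFP-high tdTomato-negative library.

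Both types had the profile of alveolar fibroblasts, and MatFB-Im,Cuff had less of it. Tcf21 was at 1071 CPM in MatFB-Im,Cuff and 1051 CPM in MatFB-Type 2, a ratio of 1.02 (95% interval 0.985 to 1.05), against 171 CPM in the adventitial fibroblasts (AdvFB) of the library and 13.4 CPM in its myofibroblast types. Npnt, which encodes the integrin ligand nephronectin, was at 1239 against 2176 CPM, 1.76-fold lower. A list of 20 alveolar fibroblast markers had 13 members at least 1.5-fold lower in MatFB-Im,Cuff and 1 higher, with a median log2 ratio of -0.79. Over the 17068 genes with at least 10 UMIs in either type, 14.3% were lower and 9.91% higher by 1.5-fold, with a median of -0.07. Ces1d, a carboxylesterase, was at 49.5 against 209 CPM, and Slc7a10, an amino acid transporter, at 38.4 against 135 CPM. Fgfr4, a receptor for FGFs, was at 134 against 383 CPM and Macf1, which links actin to microtubules, at 5984 against 10711 CPM. Inmt, a methyltransferase, is named after its value was seen, as the 1 marker that was higher, at 718 against 464 CPM.

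Cell by cell, the 20 markers summed to a median of 24530.4 CPM in MatFB-Im,Cuff (lowest 2785, highest 41961) and 36399.8 CPM in MatFB-Type 2 (lowest 13078, highest 67196). The 2 distributions overlapped. Even so, 130 of 205 MatFB-Im,Cuff cells lay below the 5th percentile of MatFB-Type 2, and 0 lay above its 95th. AdvFB cells had a median of 3051 CPM and were all below that 5th percentile, and MatFB-Type 1 cells, the other mature fibroblast name of the library, had a median of 35475 CPM.

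Markers of cells outside the mesenchyme were near 0 in both types. The measured members of the immune list summed to 10.7 CPM in MatFB-Im,Cuff and 6.33 CPM in MatFB-Type 2, those of the epithelial list to 20.4 and 43.2 CPM, and those of the endothelial list to 68 and 46.6 CPM. Of 12 endothelial markers, 5 had no UMI in MatFB-Im,Cuff, and Pecam1 was at 23.5 against 9.31 CPM.

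Genes were counted where the higher type had 50 CPM or more and the gene was seen in 10% or more of its cells. Of 3783 such genes, 115 (3.04%) were at least 2-fold higher in MatFB-Im,Cuff and 87 (2.3%) at least 2-fold lower. Immediate early genes made up 20 of the 115. Of the 115 genes, 80 stood highest of all in AdvFB, while MatFB-Im,Cuff was the highest of the 4 types with at least 50 cells (MatFB-Im,Cuff, MatFB-Type 1, MatFB-Type 2 and AdvFB) for 35. Among the 87 lower genes the order was the reverse: AdvFB was the lowest of the 4 types for 71 and MatFB-Im,Cuff for 15. For most of these genes, 202 in all with both directions, MatFB-Im,Cuff thus lay between MatFB-Type 2 and AdvFB in level. They were picked by their ratio, and the same order over all genes is not given here. AdvFB was itself mixed, so its level is an average. Of its 148 cells, 48 were above the 95th percentile of MatFB-Type 2 for smooth muscle markers and 142 for pericyte markers. For adventitial markers 31 lay below the MatFB-Type 2 median.

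**Figure D1:**
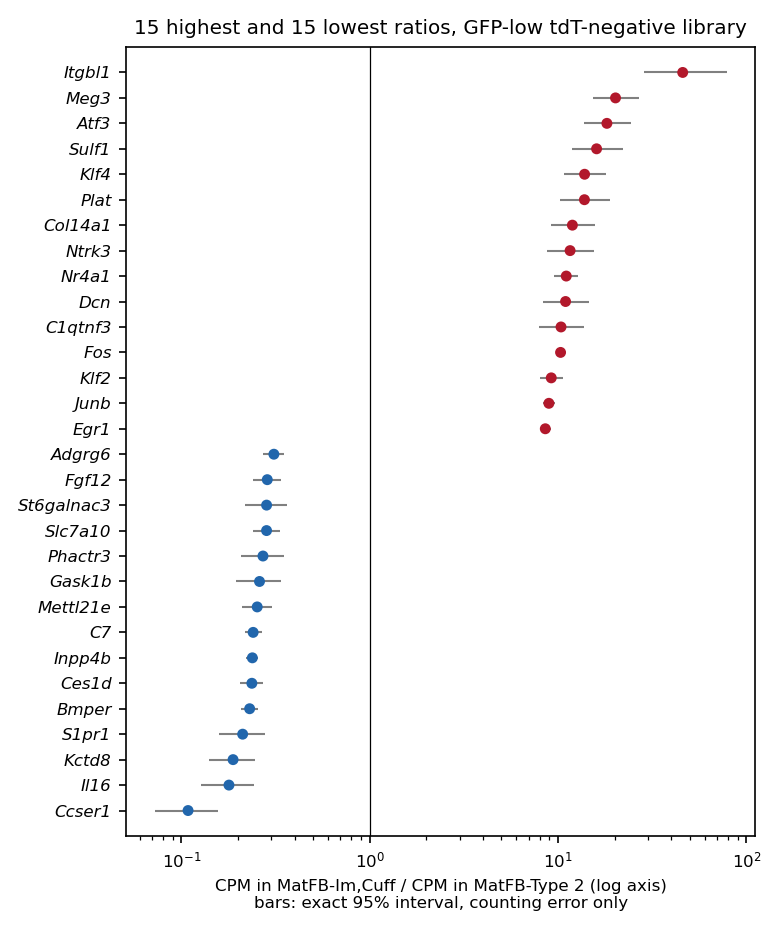
Ratio of the level (CPM) in 205 MatFB-Im,Cuff cells to that in 651 MatFB-Type 2 cells for the 15 highest (red) and 15 lowest (blue) genes, on a log axis, with exact 95% intervals of counting error as bars. Among genes with 50 CPM or more, seen in 10% or more of cells of the higher type, Itgbl1 had the highest ratio, 45.9, and Ccser1 the lowest, 0.109.

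Immediate early genes gave 7 of the 15 highest ratios. The promoters of 4 members of the list are shown because nearly all members of the list were higher and these 4 hold the core of the CREB/ATF site, TGACG or its complement CGTCA, which is in capitals. Each line gives the 150 bases before the RefSeq start on GRCm38.p6, 5′ to 3′ on the gene's strand.
Fos, chr12:85473740-85473889, plus strand: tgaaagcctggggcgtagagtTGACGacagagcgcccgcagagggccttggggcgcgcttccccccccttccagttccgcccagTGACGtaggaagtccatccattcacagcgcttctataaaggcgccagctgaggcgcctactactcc
Fosb, chr7:19310046-19310195, minus strand: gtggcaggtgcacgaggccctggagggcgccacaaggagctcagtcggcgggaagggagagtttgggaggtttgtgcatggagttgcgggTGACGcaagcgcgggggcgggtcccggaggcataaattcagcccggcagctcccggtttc
Nr4a1, chr15:101266696-101266845, plus strand: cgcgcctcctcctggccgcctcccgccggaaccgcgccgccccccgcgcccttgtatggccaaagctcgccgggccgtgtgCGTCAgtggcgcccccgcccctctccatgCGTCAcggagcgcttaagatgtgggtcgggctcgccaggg
Atf3, chr1:191183334-191183483, minus strand: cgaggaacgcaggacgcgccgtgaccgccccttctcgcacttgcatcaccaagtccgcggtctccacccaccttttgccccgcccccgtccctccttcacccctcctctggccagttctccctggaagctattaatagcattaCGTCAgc
Searched on both strands, TGACG occurred in this window in 11 of 26 promoters of the list (42.3%) and in 3640 of 27025 RefSeq promoters (13.5%). These 4 were picked with the match and their values known, Fosb among them although the naming rule does not give it, and a match of letters is not a measured binding site.

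Of 29 measured members of the immediate early and dissociation list, 28 were at least 1.5-fold higher in MatFB-Im,Cuff and 0 lower, with a median log2 ratio of 2.13. Without the cells of 2 clusters described further on, led by Fos and by Wif1, it was 17 of 27 and a median of 0.92. Fos, a subunit of the AP-1 transcription factor, was at 1436 CPM in MatFB-Im,Cuff and 139 CPM in MatFB-Type 2, 10.3-fold higher (95% interval 9.79 to 10.9). Its relative Fosb was at 465 against 69.4 CPM, and Junb, a partner of both, at 691 against 77.2 CPM. Atf3, a stress-induced repressor, was at 83.2 against 4.58 CPM, 18.2-fold (13.8 to 24.3), and Nr4a1, an orphan nuclear receptor, at 199 against 18 CPM, 11.1-fold. The zinc finger factors Klf4, Klf2 and Egr1 were 13.8-fold, 9.21-fold and 8.56-fold higher. AdvFB cells had more of Fos, Egr1 and Atf3 than MatFB-Im,Cuff: Fos was at 1843 CPM there, Egr1 at 1515 against 715 CPM in MatFB-Im,Cuff, and Atf3 at 319 CPM.

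With every cell thinned to 5000 UMIs, Fos was seen in 60.5% of MatFB-Im,Cuff cells, 12.7% of MatFB-Type 2 cells and 67.6% of AdvFB cells, and with all UMIs in 69.3% and 22.4% of the first 2. Per cell the list was spread widely. Its sum ran from 814 to 46556 CPM in MatFB-Im,Cuff with a median of 5405, and from 79.5 to 24595 CPM in MatFB-Type 2 with a median of 1399. Of 205 MatFB-Im,Cuff cells, 91 were above the 95th percentile of MatFB-Type 2 (7440.2 CPM), as were 33 of 651 MatFB-Type 2 cells, which is what a 95th percentile leaves. The median was 12009 CPM in AdvFB and 1277 CPM in MatFB-Type 1. The list also holds genes induced by dissociation, and the part of digestion in its level was not tested.

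**Figure D2:**
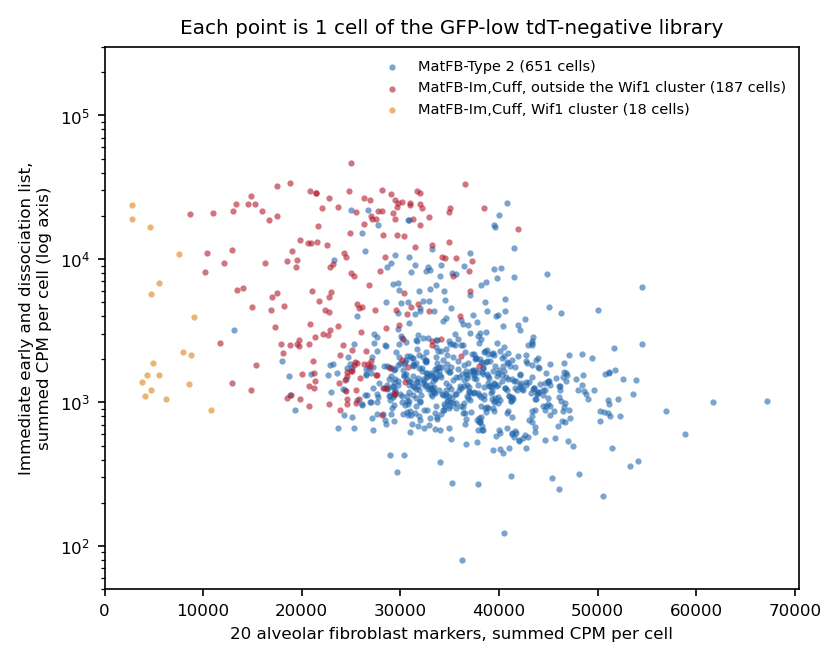
Summed level of 20 alveolar fibroblast markers (CPM, horizontal axis) and of the immediate early and dissociation list (CPM, vertical log axis) in each MatFB-Type 2 cell (blue), MatFB-Im,Cuff cell (red) and the 18 MatFB-Im,Cuff cells of the Wif1 cluster (orange). 130 of the 205 MatFB-Im,Cuff cells lie left of the 5th percentile of MatFB-Type 2 (26505 CPM), and they reach both high and low immediate early levels.

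MatFB-Im,Cuff was not 1 body of cells. When all MatFB cells of the library were clustered anew, 92 of its cells fell in a cluster led by Fos, Egr1 and Atf3, beside 42 MatFB-Type 2 cells. Another 49 fell in a cluster led by Hpse2, Sema3d and Itgb8, beside 58 MatFB-Type 2 cells. A group of 18 formed a cluster of its own with no MatFB-Type 2 cell, led by Wif1, Mannr and Entpd1, and 46 were spread over the remaining clusters. Clusters are called here by their leading genes, which are therefore no finding. When the immediate early list was left out of the clustering, the Fos and Hpse2 groups were drawn otherwise. A cluster led by Plat, Sema3d and Hpse2 then held 81 MatFB-Im,Cuff and 20 MatFB-Type 2 cells. Another, led by Saa3, Atf3 and Egr1, held 59 and 111. A cluster of 18 led by Wif1, with no MatFB-Type 2 cell, was found again. The results by cluster below use the clustering with that list. The summed alveolar markers had a median of 26316 CPM in the 92 cells of the Fos cluster, 22176 in the 49 of the Hpse2 cluster, 26143 in the 46 others and 5201 in the 18 of the Wif1 cluster. All 4 medians were below the 36399.8 CPM of MatFB-Type 2. Immediate early genes had a median of 18927 CPM in the Fos cluster and 2135, 2054 and 2005 CPM in the other 3 groups of MatFB-Im,Cuff cells, against 1308 CPM in the 551 MatFB-Type 2 cells outside the Fos and Hpse2 clusters.

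Several of the highest ratios came with far higher levels in the 18 cells of the Wif1 cluster than in the rest of MatFB-Im,Cuff. Itgbl1 (chr14:123659971-123975618, GRCm38), an integrin beta-like secreted protein, was at 63.1 against 1.37 CPM over all cells, 45.9-fold (28.5 to 78.7), and at 630.1 CPM in the 18 cells, 6.54 in the Fos cluster, 15.1 in the Hpse2 cluster and 4.99 in the others. Col14a1, a fibril-associated collagen, was at 544 CPM in the 18 cells and 17.1 to 25.5 CPM in the other 3 groups, against 5.57 CPM in MatFB-Type 2 and 1767 CPM in AdvFB. C1qtnf3, a secreted C1q relative, was at 471 CPM in the 18 cells, 34.9 CPM in the Hpse2 cluster and 5.19 CPM in MatFB-Type 2, and at 19.8 CPM in AdvFB. The Wnt antagonist Wif1 had 91 UMIs in MatFB-Im,Cuff and 1 in MatFB-Type 2, a ratio of 283 (49.5 to 11290.1), and 243 CPM in the 18 cells. Lgr5, a receptor for R-spondins, was at 162 CPM in the 18 cells and 1.22 CPM in MatFB-Type 2. In these cells Npnt was at 192 CPM and Tcf21 at 530.1 CPM, while C7, Slc7a10 and S1pr1 had 0 UMIs, which allows up to 8.11 CPM. Their collagen genes summed to a median of 15198 CPM per cell, against 7402 CPM in MatFB-Type 2.

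**Figure D3:**
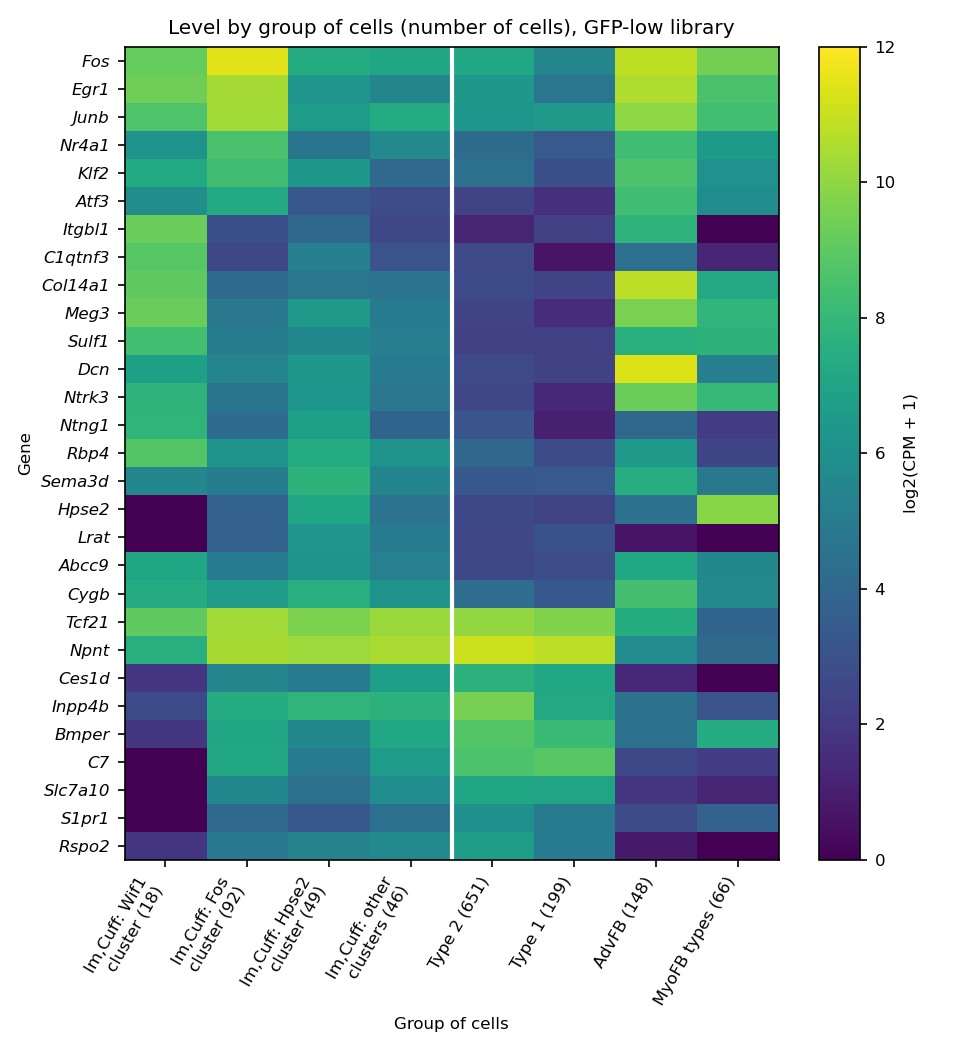
Level, as log2(CPM + 1), of 29 genes (rows) in 4 groups of MatFB-Im,Cuff cells (left of the white line) and in MatFB-Type 2, MatFB-Type 1, AdvFB and the myofibroblast types of the library, with the number of cells in brackets. Itgbl1 is bright in the 18 cells of the Wif1 cluster (630.1 CPM), Fos in the 92 of the Fos cluster (2798 CPM), and Inpp4b is highest in MatFB-Type 2 (751 CPM).

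Leaving out the Fos cluster in both types and the Wif1 cluster left 95 MatFB-Im,Cuff and 609 MatFB-Type 2 cells. Of 3752 genes, 71 (1.89%) were then at least 2-fold higher and 79 (2.11%) lower, and 68 of the first 115 and 61 of the first 87 genes were still past 2-fold. The 12 highest ratios in these cells were those of Hpse2, Sema3d, Meg3, Dcn, Abcc9, Lrat, Ntrk3, Ntng1, Rbp4, Cygb, Grik4 and Igfbp6. Hpse2, a heparanase relative, was at 86.5 against 4.84 CPM, 17.9-fold (13.2 to 24.6), with 21.5 CPM in AdvFB and 929.8 CPM in the myofibroblast types, and the secreted guidance protein Sema3d was at 139 against 9.0 CPM, 15.5-fold. Lrat, which makes retinyl esters for storage, was at 55.9 against 4.84 CPM, and Rbp4, which carries retinol out of cells, at 124 against 14.4 CPM. AdvFB cells had 0.543 CPM of Lrat and 85 CPM of Rbp4. Ntng1, a membrane-anchored netrin relative, was at 70.4 against 7.75 CPM, and Cygb, a globin of stellate-type fibroblasts, at 133 against 17.7 CPM. Dcn, decorin, was at 60.2 against 4.84 CPM, 12.4-fold, and the imprinted non-coding RNA Meg3 at 60.7 against 4.84 CPM, 12.6-fold. Abcc9, a subunit of potassium channels, Ntrk3, a neurotrophin receptor, Igfbp6, which binds IGFs, and Grik4, a glutamate receptor subunit, were 11.9-, 10.9-, 6.41- and 6.80-fold higher. These cells were kept by clusters set after the data were seen, so the ratios are conditional on that choice. In the same cells 9.78% of 16684 measured genes were at least 1.5-fold higher and 15.4% lower, and without the Wif1 cluster alone it was 9.05% and 15.7% of 17020. These shares stand behind the counts of list members on fewer cells that follow.

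At the clustering resolution of 1 used here, cells of both names lay together in the Hpse2 cluster. At a resolution of 2, a cluster led by Sema3d, Ntrk3 and Cygb held 45 MatFB-Im,Cuff and 3 MatFB-Type 2 cells. One led by Hpse2, Syn2 and Ntng1 held 6 and 42. Ratios inside the Hpse2 cluster are therefore conditional on the resolution. In that cluster 61 of 3812 genes (1.6%) were at least 2-fold higher in the cells named MatFB-Im,Cuff and 43 (1.13%) lower. Sema3d was at 213 CPM in the 49 MatFB-Im,Cuff cells and 27.2 CPM in the 58 MatFB-Type 2 cells there, Hpse2 at 135 against 4.30 CPM and Lrat at 74.6 against 17.2 CPM. The alveolar markers had a median log2 ratio of -0.51 there, with 7 of 20 members lower and 0 higher, beside 12.7% lower and 11.2% higher over all 10622 genes measured in that cluster. Within the Fos cluster 67 of 3707 genes (1.81%) were at least 2-fold higher and 62 (1.67%) lower, and the alveolar median was -0.49, with 8 of 20 lower and 1 higher, beside 12.5% lower and 13% higher over 10899 genes. The 42 MatFB-Type 2 cells of the Fos cluster had 1304 CPM of Fos against 2798 CPM in the 92 MatFB-Im,Cuff cells, and 564 against 172 CPM of Inpp4b.

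Of 37 measured proteoglycan and matricellular genes, 22 were at least 1.5-fold higher and 2 lower, with a median log2 ratio of 0.70. Dcn was at 56.9 against 5.19 CPM, with 2674 CPM in AdvFB, and at 5000 UMIs per cell it was seen in 11.7%, 2.00% and 66.2% of the 3 types. Lum, lumican, had 37 UMIs against 1, a ratio of 115 (19.4 to 4662), and 0 in the 18 cells of the Wif1 cluster. Smoc2, a matricellular calcium-binding protein, was at 17.1 against 1.68 CPM, while Ogn, osteoglycin, was near equal at 1204 and 1141 CPM. Sulf1, which trims sulfate from heparan chains, was at 62.3 against 3.89 CPM, 16-fold.

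Collagens had 9 of 24 members higher and 3 lower, with a median of 0.55. Col1a1, of the main fibrillar collagen, was at 1819 against 1192 CPM and Col1a2, its partner chain, at 2198 against 1479 CPM. Col12a1, which decorates fibrils, was at 30.3 against 6.56 CPM. Elastic fibre genes had 7 of 24 higher and 2 lower. Fbn2, the fibrillin of the fetal lung, was at 97.7 against 17.5 CPM, 5.59-fold, and Mfap5, a microfibril protein, at 311 against 71.9 CPM. Eln, elastin, was at 5206 against 4010.1 CPM, 1.30-fold, and Mfap4, a microfibril protein on the alveolar list, was lower at 5716 against 8862 CPM. Basement membrane genes had 2 of 20 members higher and 4 lower: Lama2, a laminin chain, was at 526 against 205 CPM but Lama5 at 37 against 72 CPM and Fn1, fibronectin, at 2424 against 3789 CPM. Among matrix proteases and their inhibitors 9 of 30 were higher and 6 lower, and without the Fos and Wif1 clusters 4 of 27 and 4. Plat, tissue plasminogen activator, was at 56.9 against 4.12 CPM, 13.8-fold (10.2 to 18.9), and 33.7 CPM in AdvFB, and Adamts17, a metalloprotease, was lower at 594 against 1202 CPM. At a resolution of 2, a cluster led by Cxcl1, Il6 and Plat held 16 MatFB-Im,Cuff cells and 0 MatFB-Type 2 cells. Its immediate early genes had a median of 22827 CPM per cell. Integrins were even at 4 higher and 4 lower of 16. Itga8, which pairs to bind nephronectin, was at 668 against 1143 CPM.

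Of 17 measured adventitial markers, 10 were higher and 0 lower (median log2 ratio 0.61), yet their level stayed far from that of AdvFB. They summed to 8415 CPM in MatFB-Im,Cuff, 6277 CPM in MatFB-Type 2 and 39419 CPM in AdvFB. Pi16 and Clec3b, well-known markers of that list, were at 4.74 against 3.20 CPM and 540.0 against 538 CPM, and are named here after their values were seen. Markers of peribronchial and cuff fibroblasts had 7 of 10 members higher and 1 lower, with a median of 0.94. Without the 18 cells of the Wif1 cluster 3 of 8 were higher and 3 lower, and the median was -0.01. Hhip, a Hedgehog antagonist of that list, was at 314 against 384 CPM. Pericyte markers had 6 of 12 higher and 1 lower. Their summed level was 234 against 151 CPM, and Pdgfrb, the PDGF receptor of pericytes, was at 16.4 against 0.61 CPM, with 116 CPM in the 18 cells and 5.53 in the Fos cluster. The part of cells of those types in these values was not tested.

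Of 15 imprinted growth genes 9 were higher and 0 lower, at a median log2 ratio of 0.61, which was 0.61 without the Fos and Wif1 clusters. Inside the Fos and the Hpse2 cluster 4 of 14 were higher and 0 lower, with medians of 0.38 and 0.32. The list summed to 3660 CPM in MatFB-Im,Cuff, 2657 in MatFB-Type 2, 3599 in the myofibroblast types and 6789 in AdvFB. This network is known to be high in growing embryonic tissue and to shut down after birth. Meg3 (chr12:109541001-109571726, GRCm38) was at 92.4 against 4.58 CPM, 20.2-fold (15.4 to 27), with 1.88 CPM in MatFB-Type 1 and 771 CPM in AdvFB. In the groups of MatFB-Im,Cuff cells it was at 603, 27.2, 84.9 and 28.7 CPM in the Wif1, Fos, Hpse2 and other clusters, above MatFB-Type 2 in each. Rian, a neighbouring RNA of the same imprinted region, had 52 UMIs against 1. Gnas was at 1339.6 against 962 CPM.

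Signalling pathways are given by family, and 9.91% higher and 14.3% lower over all measured genes is the level to read their counts against. In the PDGF and IGF pathway 12 of 21 were higher and 0 lower (median 0.69), and without the Fos and Wif1 clusters 7 of 19 and 0. The ligand Pdgfd was at 17.8 against 0.305 CPM, 58.3-fold (21.8 to 219), and the IGF-binding Igfbp7 at 1171 against 736 CPM. Pdgfra, the receptor whose locus carries GFP, was at 188 against 129.8 CPM, 1.45-fold. Igfbp2, another IGF binder, had 35 UMIs in MatFB-Im,Cuff, all of them in the 18 cells of the Wif1 cluster, and 0 in MatFB-Type 2, which allows up to 0.229 CPM.

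Of 33 Wnt pathway genes 8 were higher and 7 lower. Without the 18 cells of the Wif1 cluster 3 of 31 were higher and 8 lower, and without the Fos cluster as well 2 and 7. Rspo2, a ligand that strengthens Wnt signals, was 3.15-fold lower at 33.2 against 105 CPM, and Znrf3, which removes Wnt receptors, was at 117 against 223 CPM. The antagonist Sfrp1 was higher at 22.5 against 3.81 CPM. In the FGF pathway 3 of 21 were higher and 3 lower, shares near those of all genes. The ligand Fgf10 was at 222 against 288 CPM, the receptor Fgfr4 was 2.85-fold lower, the FGF-responsive factor Etv1 was at 78 against 200.3 CPM, and Flrt2, a membrane protein, was higher at 55.5 against 10.3 CPM. In the TGF-beta and BMP pathway 12 of 36 were higher and 4 lower (median 0.21). Without the Fos and Wif1 clusters it was 5 and 3 of 36 and a median of -0.03. The ligand Tgfb3 was at 78.5 against 25.7 CPM, the ligand Bmp6 at 5.22 against 18.7 CPM, and Bmper, a secreted BMP modulator, at 102 against 444 CPM. Hedgehog genes had 3 of 13 higher, among them the co-receptor Gas1 at 266 against 104 CPM, and 1 lower. Their median turned from -0.12 to 0.14 without the Fos and Wif1 clusters. Notch genes had 6 of 14 higher, among them the target Heyl at 28.9 against 8.32 CPM, and 2 lower, and without those clusters 3 and 2 of 14.

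**Figure D4:**
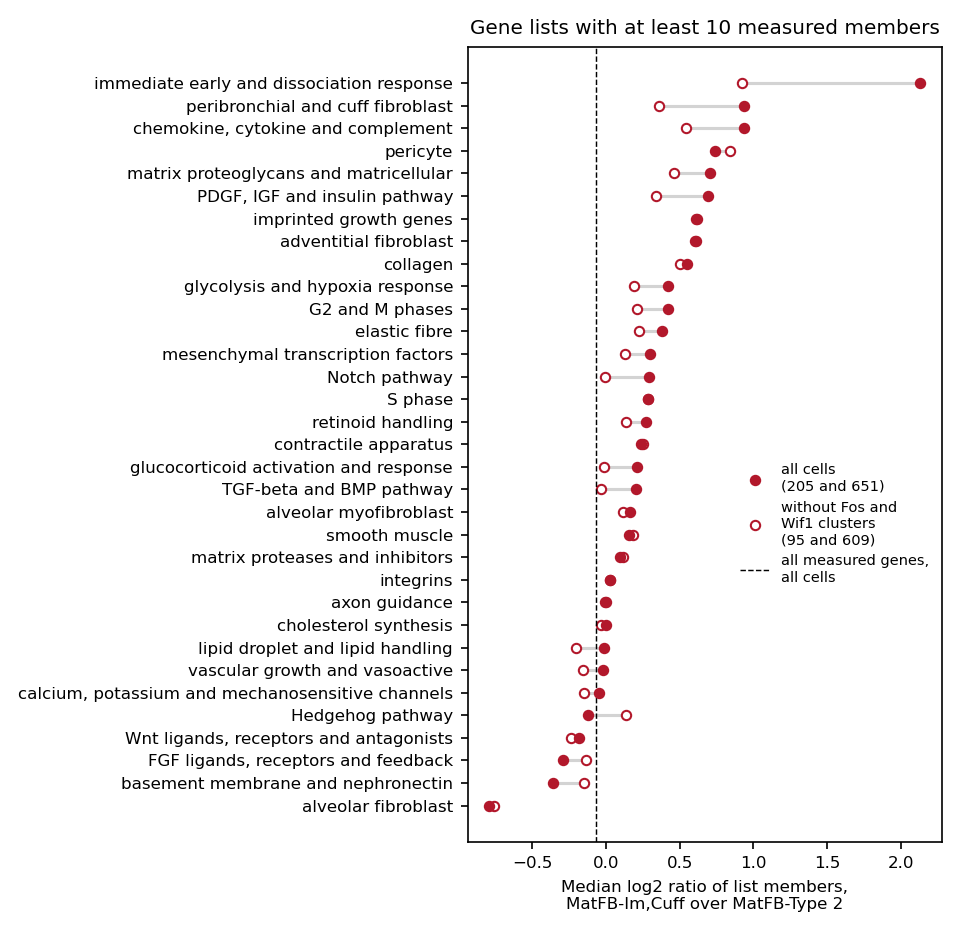
Median log2 ratio (MatFB-Im,Cuff over MatFB-Type 2) of each gene list with at least 10 measured members, over all cells (filled) and without the Fos and Wif1 clusters (open). The dashed line is the median over all measured genes, -0.07. The immediate early list goes from 2.13 to 0.92 and the alveolar fibroblast list from -0.79 to -0.76.

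Genes lower in MatFB-Im,Cuff, the side on which MatFB-Type 2 stands out, included signalling enzymes, receptors and secreted factors. Some of them led clusters that differed in sex-linked transcripts. Rspo2, Inpp4b and Plcxd3 were among the leading genes of a cluster with 167 MatFB-Type 2 cells, where 98.2% of cells had Xist UMIs only. St6galnac3 and Ccser1 were among those of another with 159, at 5% Xist only and 70% Y-linked only. The part of sex or animal in these levels was not tested. At a resolution of 2, Plcxd3 and St6galnac3 were also among the leading genes of a cluster of 52 MatFB-Type 2 and 1 MatFB-Im,Cuff cells. Its cells had a median of 13578 UMIs, 1.11% of them mitochondrial, against 19471 and 3.90% over all MatFB-Type 2 cells. The part of this cluster in the ratios was not tested. Ccser1 (chr6:61180324-62382865, GRCm38) was at 6.87 against 63.3 CPM, 9.21-fold lower (6.36 to 13.8). Inside the Hpse2 cluster this difference was not seen, with 11.3 against 10.0 CPM. Rspo2 and Plcxd3 were likewise not lower there, at 40.6 against 31.5 CPM and 33 against 18.6 CPM. Inpp4b, a phosphoinositide phosphatase, was at 179 against 751 CPM, 4.20-fold lower (3.90 to 4.52), and at 152 CPM in MatFB-Type 1 and 21.7 CPM in AdvFB. All 4 groups of MatFB-Im,Cuff cells had less of it than MatFB-Type 2, at 5.41, 172, 230.3 and 209.6 CPM in the Wif1, Fos, Hpse2 and other clusters. C7, a complement component, was at 93.2 against 387 CPM, and 6.82-fold lower without the Fos and Wif1 clusters. Bmper was 4.34-fold lower over all cells and 5.0-fold lower without those clusters. S1pr1, a receptor for sphingosine 1-phosphate, was at 13.5 against 63.9 CPM, and Il16, a cytokine, at 9.96 against 55.6 CPM.

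Kctd8, an auxiliary subunit of GABA-B receptors, was 5.31-fold lower, Fgf12, an intracellular FGF relative, 3.5-fold, St6galnac3, a sialyltransferase, 3.53-fold, Phactr3, which binds actin and phosphatase 1, 3.69-fold and Adgrg6, an adhesion receptor, 3.23-fold. Mettl21e and Gask1b were 3.96- and 3.85-fold lower. Mettl21e was higher in MatFB-Type 1 than in MatFB-Type 2, at 361 against 126 CPM. Highest in MatFB-Type 2 relative to the other types of the library, by the rule used, were Inpp4b, Kctd8, S1pr1, Phactr3, St6galnac3, Rspo2, Plcxd3 and Fat3. Fat3, a giant cadherin, was at 314 against 880.1 CPM, with 421 CPM in MatFB-Type 1, and Plcxd3, a phospholipase relative, at 33 against 100.2 CPM. Slit2, an axon guidance ligand, was 2.48-fold lower at 1790.0 against 4444 CPM, in an axon guidance list with 9 of 34 higher and 6 lower.

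MatFB-Im,Cuff had the highest level of the 4 types, by the same rule, for C1qtnf3, Ntng1, Nbl1, Nopchap1, Rgs2, Cxcl14, Agtr1b, Kcnq5, Capn6 and Nnat. Nbl1, a BMP antagonist, was at 71.8 CPM against 15.7 in MatFB-Type 2, 16.1 in MatFB-Type 1 and 31.5 in AdvFB. Cxcl14, a chemokine, was at 111, 38.5, 36.5 and 2.44 CPM in that order, and at 75.7, 129.8, 78.3 and 125 CPM in the Wif1, Fos, Hpse2 and other groups, so it was spread over MatFB-Im,Cuff. Agtr1b, an angiotensin receptor, was at 66.6 against 26.7 CPM, and the potassium channel Kcnq5 at 148 against 63.8 CPM. Capn6, a calpain without protease activity, and Nnat, imprinted neuronatin, were 2.27- and 1.91-fold higher. Rgs2, which dampens G protein signals, was 3.47-fold higher, but at 255 CPM in the Fos cluster, 25.8 CPM without the Fos and Wif1 clusters and 27.3 CPM in MatFB-Type 2 on the same cells. Nopchap1 was likewise at 12.4 and 12.4 CPM on those cells. At a resolution of 2, Kcnq5 and Capn6 were among the leading genes of a cluster where 92.3% of cells had Xist UMIs only. Rgs2 was among those of the cluster led by Saa3, Atf3 and Egr1, at 91.2% Xist only. The part of sex or animal was not tested for these genes either.

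Transcription factors of the mesenchyme had 18 of 49 members higher and 1 lower, with a median of 0.30. Klf2, Klf4 and Nr4a1 of this list are also on the immediate early list. Without the Fos and Wif1 clusters 13 of 46 were higher and 1 lower (median 0.13), and inside the Fos cluster 10 and 1 of 45 (median -0.0036). Twist2, high in embryonic mesenchyme, was at 14.7 against 0.534 CPM, and Nfib, a maturation factor of the lung, near equal at 1907 and 1694 CPM. Chemokine, cytokine and complement genes had 15 of 24 higher and 3 lower, and without the Fos and Wif1 clusters 10 and 2 of 21. Cxcl1 was at 27.3 against 1.98 CPM and Il6 at 7.11 against 0.153 CPM, and without the Fos and Wif1 clusters they were at 1.61 against 0.834 and 0.537 against 0.0834 CPM.

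Lipid and retinoid genes bear on the lipid storage for which these fibroblasts are known. Lipid handling had 2 of 30 higher and 7 lower, with a median of -0.02. Pparg, the adipogenic nuclear receptor, was at 3.08 against 19.2 CPM, 6.24-fold lower (3.58 to 11.9), and Apoe was at 839.6 and 817 CPM. Retinoid handling had 3 of 15 higher and 2 lower, with Rbp4 at 127 against 14.5 CPM on 1 side and Crabp1, which binds retinoic acid, at 9.72 against 48.3 CPM on the other. In the glucocorticoid list 5 of 17 were higher and 3 lower, and without the Fos and Wif1 clusters 3 and 3 of 16. Hsd11b1, which makes active glucocorticoid inside cells, was 2.27-fold lower at 321 against 728 CPM, and Cebpd, a factor that also answers stress, 5.41-fold higher and 2.27-fold without the Fos and Wif1 clusters. Cholesterol synthesis had 1 of 21 higher and 3 lower.

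Among contractile genes 5 of 26 were higher and 0 lower. Acta2, smooth muscle actin, was at 185 against 53.3 CPM, 3.46-fold (3.12 to 3.84), and 1960.2 CPM in the myofibroblast types, while Myh11, smooth muscle myosin, was at 7.59 and 4.35 CPM. Alveolar myofibroblast markers had 4 of 13 higher and 2 lower (2 and 4 without the Fos and Wif1 clusters), and smooth muscle markers 2 of 11 higher and 0 lower. Vascular and vasoactive genes had 5 of 26 higher and 7 lower. Vegfa, the endothelial growth factor, was 1.96-fold lower at 80.1 against 157 CPM, and Prkg1, a cyclic GMP kinase, was at 1552 and 1949 CPM. Ion channel genes had 8 of 29 higher and 6 lower (5 and 7 without the Wif1 cluster), with the calcium channel Cacna1d at 1189.8 against 2084 CPM. In glycolysis and hypoxia response 8 of 22 were higher and 2 lower, among them Pkm at 38.4 against 19.8 CPM.

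Cell cycle transcripts were low in both types. Mki67, a proliferation marker, was at 4.27 against 1.14 CPM, and the measured G2 and M phase genes summed to 371 against 306 CPM, of which Hmgb2 made 182 and 164. In that list 10 of 24 were higher and 2 lower (5 and 3 of 22 without the Fos and Wif1 clusters), and in the S phase list 6 of 29 and 0, with Usp1 at 60.2 and 43.3 CPM.

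Reporter transcripts were low in both types. The GFP reporter, listed as H2BGFP, was at 69 against 35.6 CPM, 1.94-fold (1.67 to 2.25), with 154 CPM in the myofibroblast types of the same library. tdTomato was at 2.13 and 2.29 CPM, and Fgf18 had 2 and 14 UMIs. CreERT2 had 1 UMI in MatFB-Im,Cuff and 0 in MatFB-Type 2.

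The 2 types compared had similar shares of cells with sex-linked transcripts (Xist only 47.3% and 47.8%, Y-linked only 40.5% and 38.1%), and MatFB-Type 1 did not. The labels do not trace these transcripts to animals. In MatFB-Im,Cuff 97 cells had Xist UMIs only and 83 had Y-linked UMIs only, in MatFB-Type 2 it was 311 and 248, but in MatFB-Type 1 it was 2 and 191 of 199 cells. Animal and type cannot be told apart for MatFB-Type 1, so its levels are given only beside the others. The alveolar, immediate early and adventitial lists kept their direction in Xist cells and in Y-linked cells taken alone. The median log2 ratio of the alveolar markers was -0.67 in Xist cells and -0.83 in Y-linked cells, and that of the immediate early list 2.23 and 2.64. For the adventitial markers it was 0.40 and 1.29. Single genes differed more between the sets: the log2 ratio of Fos was 3.06 and 4.27, and that of Ccser1 -2.16 and -3.69. In the Fos cluster, 31 MatFB-Type 2 cells had Xist UMIs only and 7 had Y-linked UMIs only.

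The GFP-high tdTomato-negative library held 110 MatFB-Im,Cuff and 44 MatFB-Type 2 cells, annotated together with those above and therefore not independent of them. Of 4136 genes, 257 (6.21%) were at least 2-fold higher and 213 (5.15%) lower there. Alveolar markers were lower there by more: 19 of 20 were at least 1.5-fold lower, beside 12.7% of all measured genes, with a median log2 ratio of -2.26. Npnt was at 282 against 1534 CPM and Tcf21 at 478 against 805 CPM. Adventitial markers had 14 of 17 higher, beside 19.5%, with Dcn at 626 against 18 CPM and Col14a1 at 476 against 37.1 CPM. Immediate early genes had 9 of 29 higher and 2 lower (median 0.29), and Fos was at 1368 against 986 CPM, high in both types. Hpse2 was at 117 against 20.2 CPM, Sema3d near equal at 112 against 99 CPM, and Lrat, from 5 and 4 UMIs, at 2.41 against 4.50 CPM. Itgbl1 was at 366 against 6.75 CPM. Differences between the 2 libraries were not tested, since each gate has 1 library.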

How the data were processed

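The deposited files hold raw UMI counts per gene and cell of 3 droplet libraries (10x Genomics v3.1, reading 3′ ends, per the labels' protocols) and a table of cell names. Reads were processed with Cell Ranger 7.0.0 and mm10 was used, per the submitters' processing notes. A deposited percent column gives each cell's mitochondrial share. How the types were called, which cells the authors filtered out and whether pups were pooled are not given in the sources used here. The tdTomato-positive, GFP-negative population was not analysed here. The members and gene lists were chosen with earlier results of these data known.

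Counts were summed over the cells of each deposited type and divided by the type's total (CPM). Levels have exact Poisson intervals, ratios exact conditional binomial 95% intervals and shares exact Clopper-Pearson intervals, all of counting error only. With 1 library per gate nothing was tested. Log2 ratios use a pseudocount of 1 CPM and ratios given as folds use none. A gene was counted where the higher type had 50 CPM or more and showed it in 10% or more of its cells, and was called from 2-fold. List members needed 10 UMIs in either type and were counted from 1.5-fold.

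Genes are named by a rule: the 15 highest and 15 lowest ratios, the 10 genes highest in MatFB-Im,Cuff and the 8 highest in MatFB-Type 2 relative to the other types, a fixed set (the reporters, Pdgfra, Fgf18, Tcf21, Npnt, Acta2, Eln, Col1a1, Dcn) and up to 4 members of each list. The 12 highest genes without the Fos and Wif1 clusters, and those clusters themselves as subsets, were added after the data were seen. The MatFB cells were clustered by Leiden at a resolution of 1 on 2000 variable genes, 30 principal components and 15 neighbours.

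Scrublet marked 2 of the 1284 cells (0.156%), which is too few for a working call, so doublets were kept and their part was not tested. On simulated counts for this comparison with known ratios, 53 of 53 genes set 4-fold lower, 52 of 52 set 4-fold higher, 26 of 48 set 2-fold lower, 12 of 47 set 2-fold higher and 0 of 3236 unchanged genes were called. The simulated counts held counting error only, with no spread between cells, clusters or animals. They check the calculation and give no rate of false calls for the real genes. Of 31730 symbols, 30176 matched GENCODE M21 on GRCm38, which gave the coordinates, and promoters are from RefSeq. Software was Python 3.11.15 with numpy 2.4.6, scipy 1.17.1, pandas 2.3.3, scanpy 1.11.5 and matplotlib 3.10.9, and R 4.3.3 with edgeR 4.0.16 and DESeq2 1.42.0, used for scaling factors only.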

Additional observations from a re-analysis of the deposited data

Results flagged for a closer look

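Genes named by rank of ratio, by highest type or from the fixed set were compared between the GFP-low and GFP-high tdTomato-negative libraries where they had at least 10 UMIs in either type of the latter. Of these, 4 were at least 1.5-fold higher in the first library and at least 1.5-fold lower in the second, and with 1 library per gate the difference was not tested. Smaller turns, and those of genes named in other ways, such as Lrat and Cxcl1, are not counted here. The log2 ratio of MatFB-Im,Cuff over MatFB-Type 2 for Rgs2 was -1.75 in the GFP-high library and 1.77 in the GFP-low library. For Agtr1b it was -1.48 and 1.29, for Kcnq5 -1.44 and 1.20, and for Acta2 -1.19 and 1.77. In the GFP-high library Acta2 was at 82.1 CPM in MatFB-Im,Cuff and 189 CPM in MatFB-Type 2, from 170 and 168 UMIs. Rgs2, Agtr1b and Kcnq5 were among the 10 genes highest in MatFB-Im,Cuff of the GFP-low library.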

How the results depend on the processing

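Results here rest on 1 library and on deposited names. No paired analysis was possible because no result comes from a test and each gate has 1 library. Scaling by TMM or DESeq2 size factors reversed no value, and Scrublet doublets left out reversed none. The setting without small clusters left out clusters with under 25% of MatFB-Im,Cuff, except the one with most MatFB-Type 2 cells. It kept 93 MatFB-Im,Cuff cells, 92 of them in the Fos cluster, beside all 651 MatFB-Type 2 cells. The setting under the 90th percentile of immediate early level also left out the Wif1 cluster. It kept 75 MatFB-Im,Cuff and 585 MatFB-Type 2 cells. The count of genes at least 2-fold higher (115) was 71 without the Fos and Wif1 clusters, 71 under the 90th percentile of immediate early level, 67 inside the Fos cluster, 61 inside the Hpse2 cluster, 314 with a minimum of 10 CPM and 620 with none. The count of lower genes (87) was 137 in Y-linked cells, 146 without the small clusters of MatFB-Im,Cuff, 43 inside the Hpse2 cluster, 224 with 10 CPM and 632 with no minimum. The alveolar median (-0.79) was -0.73 on a total without mitochondrial, ribosomal and haemoglobin genes, -0.74 under 5% mitochondrial UMIs, -0.67 in Xist cells, -0.71 without small clusters, -0.72 without the Wif1 cluster, -0.89 without the Fos cluster, -0.68 under the 90th percentile, and -0.49 and -0.51 inside the Fos and Hpse2 clusters. The adventitial median (0.61) was 0.56 after thinning to 5000 UMIs, 0.40 in Xist cells, 1.29 in Y-linked cells, 0.44 without small clusters, 0.53 without the Wif1 cluster, 0.56 under the 90th percentile, and 0.52 and 0.50 inside the Fos and Hpse2 clusters. The immediate early median (2.13) was 2.64 in Y-linked cells, 3.03 without small clusters, 1.09 without the Fos cluster, 0.92 without both, 0.60 under the 90th percentile, and 0.79 and 0.90 inside the clusters. At a resolution of 2 the cells in clusters without MatFB-Type 2 cells were 33 and those in the largest were 60. Some list medians changed sign. Peribronchial and cuff markers were at -0.15 without small clusters and -0.010 without the Wif1 cluster, mesothelial at 1.67 in Y-linked cells and 0.24 without small clusters, and erythroid at 0.022 without both. Endothelial markers were at -0.24 without small clusters, -0.063 without the Fos cluster, and -0.060 and -0.45 inside the 2 clusters. TGF-beta and BMP genes were at -0.032 without both and -0.049 under the 90th percentile. Notch genes were at -0.082 thinned, -0.0052 without both, and -0.091 and -0.013 inside the clusters. Glucocorticoid genes were at -0.019 without the Fos cluster and -0.013 without both, transcription factors at -0.0036 inside the Fos cluster and G2 and M genes at -0.22 inside the Hpse2 cluster. For single genes, C1qtnf3 was at -0.060 without small clusters, Rgs2 at -0.27 without the Fos cluster and -0.077 without both, and Nopchap1 at -0.0068 without both and -0.050 under the 90th percentile. Inside the Hpse2 cluster Ccser1 was at 0.16, Nnat at -0.12, Rspo2 at 0.36 and Plcxd3 at 0.80. The cause of these shifts was not tested beyond the cells each setting leaves out.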
